A study of Mus musculus with 6 samples.

Results

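The ionotropic glutamate, GABA and glycine receptor subunits were described in mouse retina at postnatal day 21, in arrays labelled ERRβ -/- (the orphan nuclear receptor Esrrb knocked out) and in wildtype arrays. The members were the genes whose symbol names a subunit of an AMPA, kainate, delta, NMDA, GABA-A, GABA-rho or glycine receptor, and each was represented by its brightest probe set. There were 33 such genes among the 18193 genes named by a probe set with 1 symbol, and 71 probe sets stood for them. A probe set was tested if its mean log2 signal over the 6 arrays lay at or above the 40th percentile, which is a geometric mean signal of 54.5. Of the 33 genes, 27 passed this filter, and Grin2a, Grin2c, Grin3b, Gabra5, Gabra6 and Glra4 did not.

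The wildtype group held 3 arrays of C57Bl/6 mice, and the knockout group held 3 arrays of mice on a mixed C57Bl/6 and Sv129 background, so genotype and strain background differ together and cannot be told apart. Each array carried RNA from 2 pooled retinas of mice of mixed sex, with no treatment named, and the labels do not say how the ERRβ allele was made. They do not state that the pools of a group came from separate litters or days, so the p-values measure only the spread between these samples. The table held 2 scalings: replicates 1 and 2 of both groups had a trimmed mean signal near 500, and replicate 3 of both groups had one near 150. Signals are therefore compared only within a scaling, and a fold change below is the labelled knockout against wildtype with the scaling as a block. Array medians ranged from 113.9 to 135 near 500 and from 57.3 to 61.5 near 150, and the number of arrays limits the precision. The brightest Esrrb probe set did not read lower under the knockout label (2951 and 2934 in wildtype against 3435 and 4012 near 500, and 1771 against 2397 near 150), with a log2 difference of 0.37 ± 0.082 (SE) and an adjusted p of 0.0529 in limma. The labels do not say whether that probe set lies inside the deletion, so it checks nothing about them.

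Photoreceptors and bipolar cells release glutamate. OFF bipolar cells and horizontal cells read the photoreceptor signal through AMPA and kainate receptors, while amacrine and ganglion cells carry AMPA and NMDA receptors. GABA and glycine come mainly from amacrine cells: GABA-rho receptors sit on bipolar cell terminals, and GABA-A and glycine receptors occur widely on inner retinal neurons. In whole retina, fewer cells of a type and less RNA per cell cannot be told apart.

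No receptor subunit gene passed the test. In limma with Benjamini-Hochberg adjustment over all kept probe sets at 0.05, 0 of 27 members were called, against 2.75% of all genes tested (345 of 12536; 1.28% higher and 1.48% lower). With the replicate number as a block, 0 members and 0.925% of all genes were called. The lowest adjusted p among the members was 0.185. At an unadjusted p under 0.05 there were 4 of 27 members, Grid1, Gabrb2, Grik1 and Gria2, all with lower signal in the labelled knockout, while 21.3% of all genes passed that mark. Log2 fold changes ran from -0.68 for Grik1 to 0.69 for Grik4, with a median of -0.09 against 0.02 over all genes tested. There were 12 members above 0 and 15 below it, and 46.9% of all genes lay below. The 13 glutamate receptor subunits tested had a median of -0.22 and 10 lay below 0, and the 14 GABA and glycine receptor subunits had a median of 0.03 and 5 lay below 0.

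The precision differed widely between members. The 95% interval of the fold change lay within 0.5 of 0 on the log2 scale (1.41-fold either way) for 10 of 27 members: Gria2, Gria4, Gabra2, Gabra3, Gabra4, Gabrd, Gabrr1, Gabrr2, Glra2 and Glra3. It lay within 1 (2-fold) for 21 and within 1.5 (2.83-fold) for 26, the exception being Grik4. Over all genes tested, the shares were 50.3%, 89.2% and 97.4%. The 6 members whose interval reached past a 2-fold change were Grid1, Grik1, Grik4, Grik5, Grin2b and Gabrg3, so for these genes the interval held a 2-fold difference. In both scalings, every labelled knockout array lay below every wildtype array for 5 members, Gria2, Gria4, Grid1, Grin3a and Gabrb1, and above for 0 members. Over all genes tested, 15.5% lay below and 19.8% above in this way, 35.3% together.

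**Figure D1:**
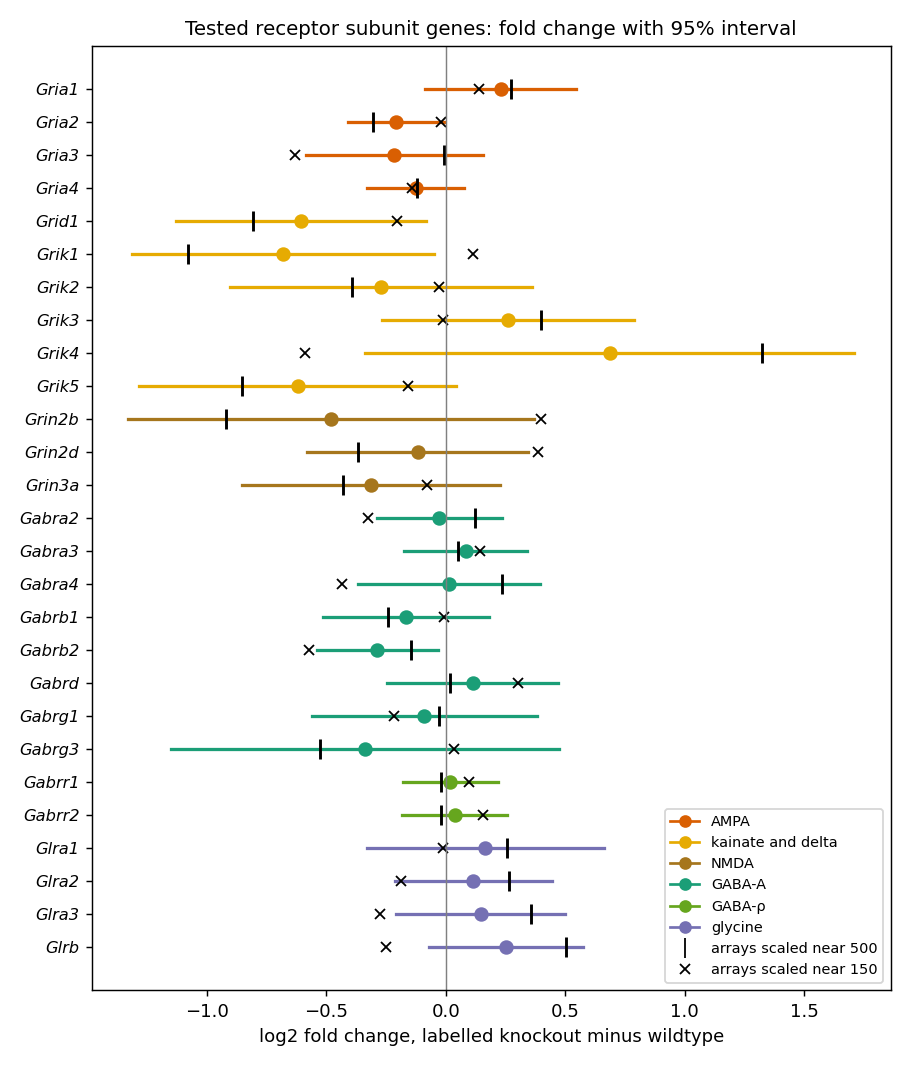
Log2 fold change (labelled knockout minus wildtype) of the 27 receptor subunit genes tested, grouped by receptor class, with the 95% interval of the limma fit as a bar and the values within the arrays scaled near 500 and near 150 as separate points. All fitted values lie between -0.68 and 0.69, the intervals are narrow for Gabrr1 and Gria2 and wide for Grik4, and no member passed the adjusted test.

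AMPA receptors carry most fast glutamate transmission, and all 4 of their subunits were measured; 3 had a fold change below 0, with a class median of -0.17. Gria2 encodes the subunit whose presence keeps AMPA receptors nearly impermeable to calcium. Its signal was 2144 and 2043 in the wildtype arrays near 500 and 1650.5 and 1744 in the labelled knockout arrays. Near 150 it was 857 in wildtype and 844 in the labelled knockout. The groups did not overlap near 500, and near 150 the values were almost equal. The log2 fold change was -0.21 ± 0.089 (SE), with a limma adjusted p of 0.228.

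Gria4 had 1623 and 1389 in wildtype against 1379 and 1386 near 500, and 673 against 611 near 150. Every labelled knockout value was lower within its scaling, though the second wildtype array stood only narrowly above, and the log2 fold change was -0.13 ± 0.091. Other kept Gria4 probe sets (1421351_at and 1440891_at) had 0.02 ± 0.15 and 0.11 ± 0.14. Gria3 overlapped near 500 (782 and 1112 in wildtype, 972 and 886 in the labelled knockout) and was 452 against 292 near 150. Its log2 fold change was -0.22 ± 0.17 in all, -0.01 near 500 and -0.63 near 150. By the brightest probe set, Gria1 was the AMPA subunit with a positive value, a log2 fold change of 0.23 ± 0.14. It read 608 and 467 in wildtype against 592 and 701 near 500, and 178 against 196 near 150. A second Gria1 probe set (1435239_at) had -0.15 ± 0.13 and lay lower in the labelled knockout without overlap in both scalings. The adjusted p in limma was 0.468 for Gria4, 0.501 for Gria3 and 0.393 for Gria1, and no AMPA subunit passed the adjusted test.

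Kainate receptors, and the related delta subunit Grid1, held the members with the largest fitted differences in both directions. Of the 6 tested, 4 lay below 0 and the class median was -0.44. Grik1, a kainate subunit used by OFF bipolar cells, gave 254 and 307 in wildtype and 163 and 107 in the labelled knockout near 500. Near 150 it gave 103 and 111, so the order turned. Its log2 fold change was -0.68 ± 0.28 (adjusted p 0.213 in limma), made up of -1.08 near 500 and 0.11 near 150.

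Grik5, an auxiliary kainate subunit that needs a partner such as Grik1 to form channels, had signals of 566 and 396 in wildtype against 173 and 398 near 500. The second labelled knockout array was level with the lower wildtype array, and the near 150 pair was 225 against 202. The log2 fold change of -0.62 ± 0.30 had an adjusted p of 0.277. Grid1 read 237 and 209 in wildtype against 143 and 114 near 500, and 71.5 against 62.0 near 150. Both scalings placed the labelled knockout below wildtype without overlap, the log2 fold change was -0.61 ± 0.23, and the adjusted p of 0.185 was the lowest of all members.

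The other auxiliary kainate subunit, Grik4, had the largest positive value. It rested on dim signals of 67.5 and 40.2 in wildtype against 128 and 133 near 500, and 38.9 against 25.9 near 150. The labelled knockout was higher near 500 (log2 1.32) and lower near 150 (-0.59), so the fitted 0.69 ± 0.46 had an interval from -0.34 to 1.71. Grik3 showed 128 and 147 in wildtype against 208 and 157 near 500, with a near-equal pair of 62.0 and 61.5 near 150. Its log2 fold change was 0.26 ± 0.23, and that of Grik2 was -0.27 ± 0.28, with overlapping groups near 500. The limma adjusted p was 0.432 for Grik4, 0.573 for Grik3 and 0.63 for Grik2.

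**Figure D2:**
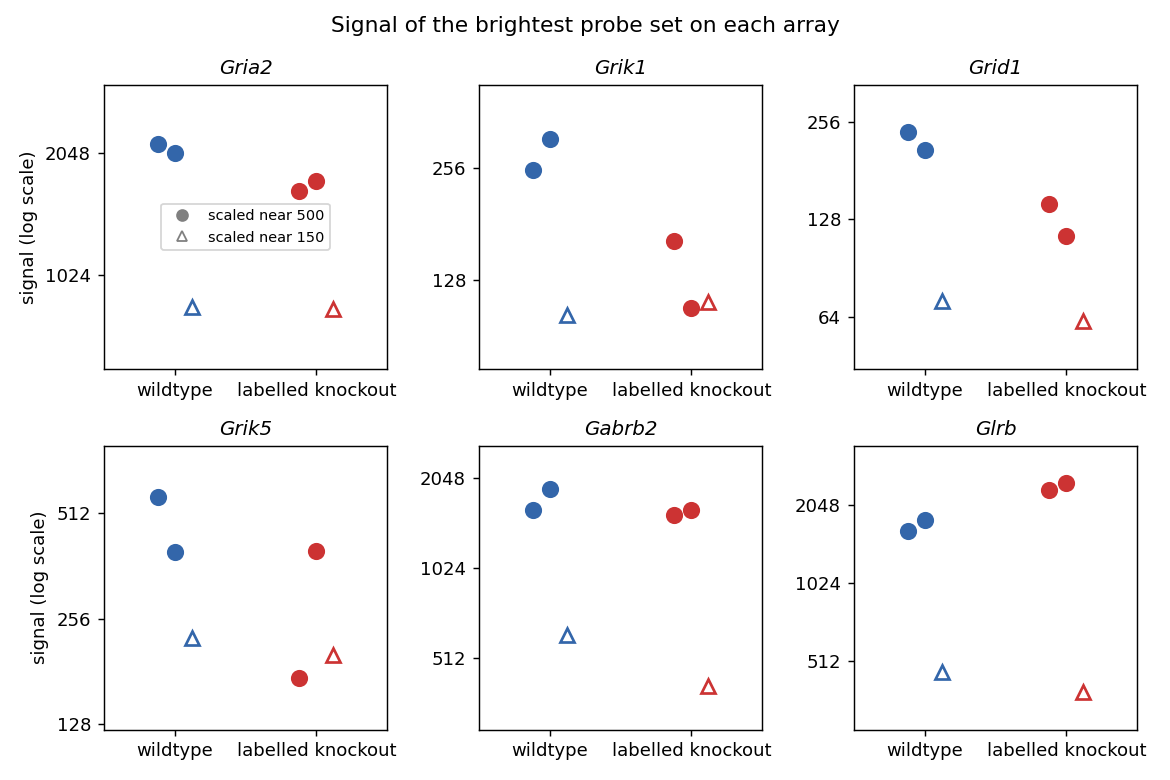
Signal of the brightest probe set of Gria2, Grik1, Grid1, Grik5, Gabrb2 and Glrb in each of the 6 arrays (log axis, MAS5 signal), by group, with the arrays scaled near 500 and near 150 drawn as different symbols. Gria2 and Grik1 lie lower, and Glrb higher, in the labelled knockout arrays near 500, while the near 150 pair is level for Gria2 and in the other order for Grik1 and Glrb.

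NMDA receptors need glutamate together with glycine or D-serine to open. Only 3 of the 6 measured genes passed the filter, all with fold changes below 0 and a class median of -0.31. Grin2b had 171 and 139 in wildtype against 116 and 57.3 near 500, while near 150 the labelled knockout was higher, 60.7 against 46.1. Its log2 fold change was -0.48 ± 0.38 with an adjusted p of 0.511. Grin2d was likewise lower near 500 and higher near 150: 251 and 239.6 against 194 and 186 near 500, and 86.1 against 112 near 150, a log2 fold change of -0.12 ± 0.21 with an adjusted p of 0.791.

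Grin3a encodes a glycine-binding subunit that lowers the calcium permeability of the receptor. It read 159 and 174 in wildtype against 126 and 122 near 500, and 46.1 against 43.6 near 150, below wildtype in both scalings. The log2 fold change was -0.31 ± 0.24, with a limma adjusted p of 0.499. During development many synapses exchange Grin2b for Grin2a, so the difference of their log2 signals was followed within each array, where the scaling drops out. It is compared between groups only, since the 2 probe sets differ in brightness for the same amount of RNA. Grin2a minus Grin2b was -3.34 and -1.998 in wildtype against -1.39 and -0.78 in the labelled knockout near 500, and -1.35 against -1.27 near 150. The shift near 500 was 1.58 and that near 150 was 0.08, and Grin2a itself lay under the filter with signals of 16.9 and 34.9 in wildtype and 44.3 and 33.3 in the labelled knockout near 500, and 18.1 and 25.2 near 150. Grin2b had 4 kept probe sets, 3 below 0 and 1 above. Near 500 the one used here (1457003_at) had a log2 difference of -0.92, and the others had 0.09, -0.54 and -0.49. The size of the shift therefore depends on the Grin2b probe set chosen. The pair was not tested.

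GABA-A receptors are chloride channels built from α, β and γ or δ subunits, and 8 of the 10 measured genes passed the filter. Their median was -0.06, 5 lay below 0, and every log2 fold change was between -0.34 and 0.11. Gabrb2, a β subunit of the most common GABA-A receptor of the brain, had the lowest adjusted p of the class, 0.196 in limma. It read 1601 and 1883 in wildtype against 1539 and 1602 near 500, and 614 against 413 near 150. Near 500 the upper labelled knockout array was level with the lower wildtype array, and the log2 fold change was -0.29 ± 0.11. Gabrb1 stood at 365 and 410.3 against 358 and 298 near 500, and 113 against 112 near 150, a log2 fold change of -0.17 ± 0.15 with an adjusted p of 0.588.

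Gabrg3, a γ subunit near the lower end of the tested range, had 111 and 73.2 against 81.2 and 48.3 near 500, and 48.4 against 49.6 near 150. Its -0.34 ± 0.36 was the lowest value of the class by brightest probe set. A second kept Gabrg3 probe set (1445846_at) had -1.30 ± 0.60, with -0.21 near 500 and -3.48 near 150. In that last pair the labelled knockout array read only 3.8. Gabrd, the δ subunit of receptors outside the synapse, read 280.0 and 298 against 284 and 301 near 500, and 87.6 against 108 near 150, giving 0.11 ± 0.16. Gabra3 was nearly level, at 708 and 782 in wildtype against 791 and 753 near 500 and 109.7 against 121 near 150, giving 0.08 ± 0.11. Gabra2, Gabra4 and Gabrg1 had log2 fold changes of -0.03, 0.01 and -0.09. By the brightest probe set, Gabra2 and Gabra4 had higher values near 500 (log2 0.12 and 0.24) and lower ones near 150 (-0.33 and -0.43). Their other kept probe sets did not repeat these signs. For Gabra2, 1421738_at had -0.24 near 500 and 0.38 near 150, and 1443865_at had -0.11 and -0.19. For Gabra4, 1429330_at had 0.29 and 0.24, higher without overlap in both scalings. The groups of Gabrg1 overlapped near 500.

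The GABA-rho subunits form the slow GABA receptors of bipolar cell terminals and were among the members with the smallest standard errors. Gabrr2 read 1111 and 1212 in wildtype against 1178 and 1109 near 500, and 291 against 324 near 150, a log2 fold change of 0.04 ± 0.097. Gabrr1 had 0.02 ± 0.089. The intervals ran from -0.18 to 0.26 for Gabrr2 and from -0.18 to 0.22 for Gabrr1. Genes marking bipolar cells, which carry these receptors, had a median log2 fold change of 0.16 over 10 tested, with none called.

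Glycine receptors receive the output of narrow-field amacrine cells, and 4 of the 5 measured genes were tested. By the brightest probe set, all 4 lay above 0, with a median of 0.16. Near 500 all 4 were above 0 (median 0.31). Near 150 all 4 were below 0 (median -0.22), Glra1 by only -0.01. Glrb encodes the β subunit, which ties glycine receptors to the scaffold protein gephyrin. It read 1629 and 1797 in wildtype against 2356 and 2489.8 near 500, a clear separation, and 460.2 against 387 near 150, the opposite order. The log2 fold change was 0.25 ± 0.14 with an adjusted p of 0.359 in limma.

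By the brightest probe set, the α subunits had the same signs as Glrb in both scalings, though Glra1 was almost level near 150. A second kept Glra1 probe set (1422277_at) had 0.44 ± 0.29. It was higher in the labelled knockout without overlap in both scalings, with 0.57 near 500 and 0.19 near 150. A second kept Glra3 probe set (1450239_at) had 0.39 near 500 and -0.51 near 150. Glra3 read 643 and 774 against 1002 and 814 near 500, and 282 against 233 near 150, giving 0.15 ± 0.16. Glra1, the adult form, read 363 and 261 against 438 and 308 near 500, and 35.3 against 35.0 near 150, giving 0.17 ± 0.22. Glra2, the form of the immature nervous system that also persists in retina, read 589 and 759 against 779.5 and 829.6, and 151 against 133 near 150, giving 0.12 ± 0.15. Glra1 minus Glra2, the difference within each array, was -0.70 and -1.54 in wildtype against -0.83 and -1.43 near 500, and -2.10 against -1.92 near 150. The group means of that difference moved by -0.01 near 500 and 0.17 near 150.

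The 6 members under the filter were not called. In a fit with no filter their log2 fold changes ran from -0.60 for Glra4 to 0.60 for Grin2a, and the lowest adjusted p over all 33 members in that fit was 0.281.

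The members were then read within the arrays scaled near 500 alone, 2 against 2. There, 3 of 27 members were called in limma: Glrb was higher (log2 0.50, adjusted p 0.00416), and Gria2 (-0.30, adjusted p 0.0387) and Grik1 (-1.08, adjusted p 0.0253) were lower. The background in that fit was 14.3% of all genes, 7.52% higher and 6.78% lower, so 3 of 27 was close to the share of all genes. In the near 150 pair, with 1 array a group and no test, the log2 differences were -0.25 for Glrb, -0.02 for Gria2 and 0.11 for Grik1. Of the 27 members, 14 had opposite signs in the 2 scalings, against 43.4% of all genes. Near 500, the groups did not overlap for 15 members, against 58.7% of all genes. The interaction of group and scaling was called for 0 of 27 members and 1.17% of all genes, with Glrb at an adjusted p of 0.0553.

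The call of Gria2 near 500 depended on the scaling of the arrays. The median of all probe sets was 0.195 lower on the log2 scale in the labelled knockout near 500 and 0.103 higher near 150. After the 4 arrays were centred on their medians, an alternative chosen after seeing the data, Gria2 was no longer called and 6 members were: Grik1 was lower and Gria1, Grik4, Glra2, Glra3 and Glrb were higher. With quantile normalization of these arrays, also chosen after seeing the data, 4 were called, Glrb and Grik4 higher and Gria2 and Grik1 lower. Glrb and Grik1 were thus called near 500 under all 3 scalings. The share of all genes called after centring or quantile normalization of these arrays is not given here. The counts of 6 and 4 therefore cannot be set against it, and without further scaling that share was 14.3%.

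**Figure D3:**
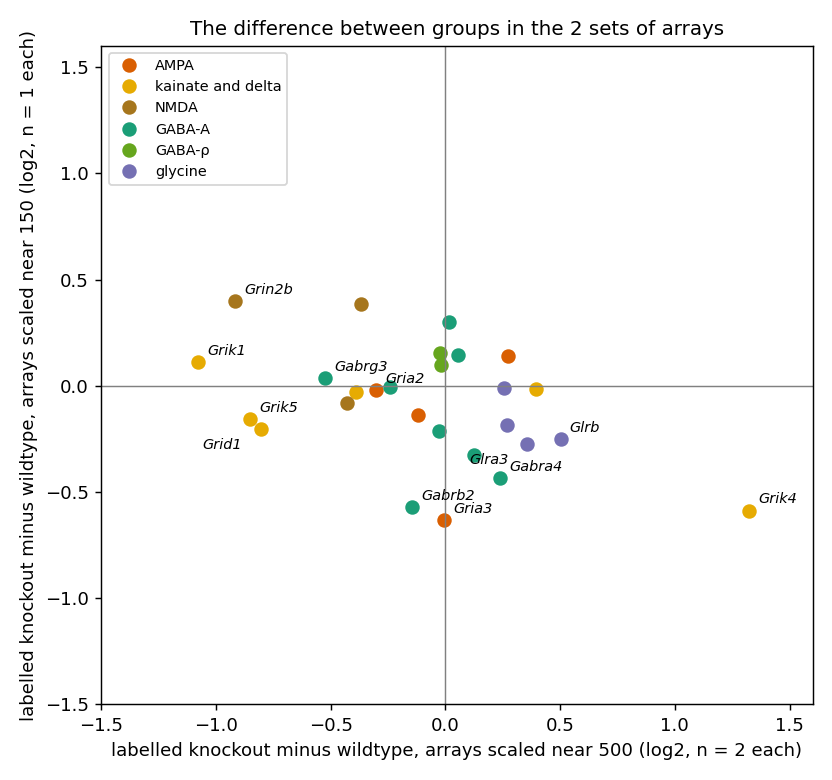
Log2 fold change of each of the 27 members within the arrays scaled near 500 (horizontal) against the near 150 pair (vertical), coloured by receptor class. The 4 glycine receptor subunits, by brightest probe set, lie right of 0 and below 0, with Glra1 at only -0.01 on the vertical axis. Grik1 is near -1.08 on the horizontal axis and 0.11 on the vertical one.

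Further probe sets of the same genes gave a second reading. Among the 18 genes with more than 1 kept probe set, all probe sets had 1 sign in 12 (7 below 0 and 5 above 0) and mixed signs in 6. Of the 55 member probe sets, 0 were called in limma and 8 had an unadjusted p under 0.05, against 2.25% and 20.4% of all kept probe sets. The groups did not overlap in either scaling for 14 probe sets with lower and 2 with higher values in the labelled knockout, against 17.2% and 16.4% of all kept probe sets (33.6% together). For Gria2, all 3 probe sets were lower in the labelled knockout without overlap in both scalings, at -0.21, -0.20 and -0.56. The third of these (1453098_at) read 962 and 1112 in wildtype against 615 and 599.9 near 500, and 835 against 761 near 150. Its fitted -0.56 ± 0.14 had an adjusted p of 0.0688.

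Grin3a also had all 3 probe sets lower in both scalings, at -0.31, -0.54 and -1.41. The last (1436575_at) read 218 and 161 against 28.3 and 65.7 near 500 but 67.2 against 67.1 near 150, and its -1.41 ± 0.48 had an adjusted p of 0.148. Gabrb1 had 3 probe sets at -0.77, -0.17 and -0.14. The probe sets of Grik1 disagreed: a second one (1427676_a_at) had 0.22 ± 0.24, with 0.36 near 500, against the -0.68 of the brightest. The second Grid1 probe set likewise had 0.06 ± 0.38.

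The second Glrb probe set (1459850_x_at, a type whose probes can match other transcripts) read 884 and 854 in wildtype against 1556 and 1614 near 500, and 714 against 355 near 150. It was higher near 500 (log2 0.87, adjusted p 0.000231 in limma) and had -1.01 near 150. The interaction of group and scaling was -1.88 ± 0.15, with an adjusted p of 0.00124, where 1.19% of all kept probe sets had such a call. Both Glrb probe sets therefore had the same orders in the 2 scalings. Near 500 alone, 6 of the 55 member probe sets were called against 13.7% of all kept probe sets: both of Glrb, 2 of Gria2, 1 of Grik1 and 1 of Grin3a.

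**Figure D4:**
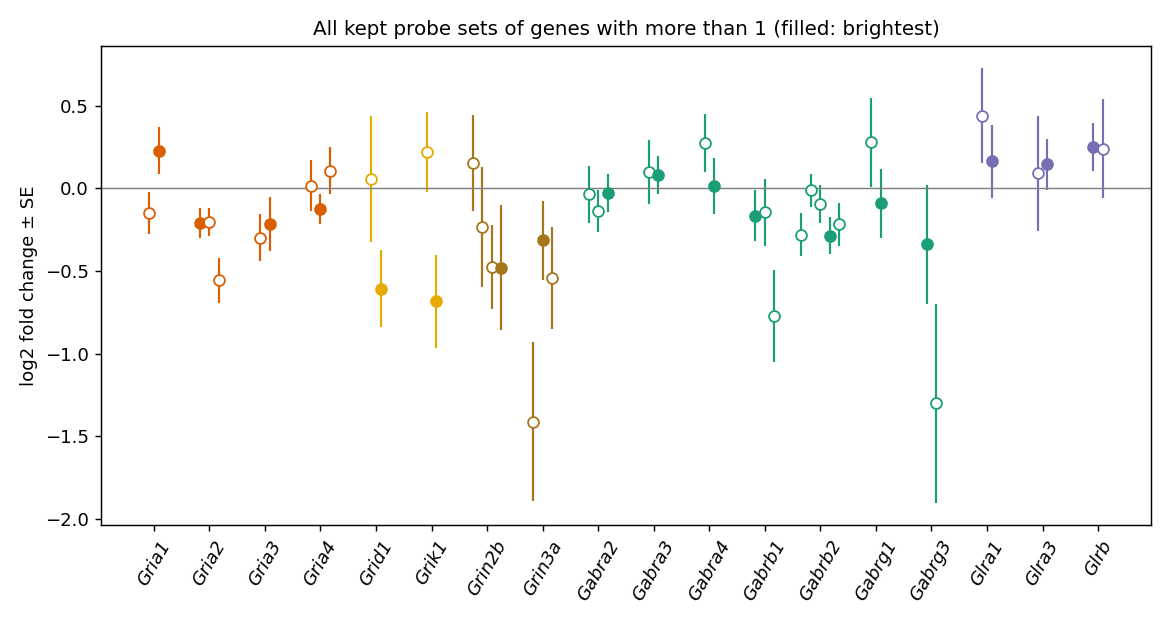
Log2 fold change of every kept probe set of the members that have more than 1, one column per gene, with the brightest probe set as a filled point, the others open, and bars for the standard error. All 3 probe sets of Gria2 and of Grin3a lie below 0, while the pair of Grik1 falls on both sides of it, at -0.68 and 0.22.

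Genes that work with these receptors gave 1 call. Of a list of 77 other synapse genes, 64 were tested; 1 was higher and 0 lower in limma (2.75% of all genes were called), with 9 at an unadjusted p under 0.05 and a median log2 fold change of -0.04. The gene that rose was Gabarap, the GABA-A receptor-associated protein, which also serves in autophagy. Its signal was 3879 and 3848 in wildtype against 5201 and 4695 near 500, and 544 against 779.8 near 150, with no overlap in either scaling. The log2 fold change was 0.41 ± 0.080, with an adjusted p of 0.0345, and 0.0854 with the replicate number as a block. It was not called after centring or quantile normalization, nor without replicate 1 or 2 of either group. In those fits 0 genes of the list were called. Without replicate 3 of either group 9 were, which largely repeats the fit of the arrays near 500 alone. The 38 receptor partners and anchors tested had a median of -0.10, the 17 genes of transmitter synthesis and transport -0.04, the 7 metabotropic receptors 0.16 and the 2 genes of the chloride gradient -0.05.

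The 2 lowest values of the list, neither of which passed, were those of Homer2, a scaffold of the postsynaptic density, at -0.55 ± 0.13 (adjusted p 0.0656 in limma), and Shisa6, an AMPA receptor partner, at -0.51 ± 0.25 (0.293). The highest after Gabarap was that of Nptx2, a pentraxin that gathers AMPA receptors, at 0.40 ± 0.16 (0.202), which did not pass either. Homer2 read 599 and 552 in wildtype against 363 and 361 near 500, and 218 against 177 near 150, below wildtype in both scalings. Gphn, which encodes gephyrin, the anchor of Glrb, had -0.01. Near 500 alone, of the 65 tested there, 4 were called higher (Gabarap, Nptx2, Slc17a6 and Slc1a7) and 5 lower (Nlgn2, Homer2, Slc6a11, Slc17a7 and Slc1a2). This was close to the share of all genes called in that fit, 14.3% (7.52% higher and 6.78% lower).

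Several members lie beside each other in the reference gene order. Gria2 and Glrb have no protein-coding gene between them and had values of opposite sign, -0.21 and 0.25. Gabrr1 and Gabrr2, also neighbours, had 0.02 and 0.04. In the cluster of Gabrg1, Gabra2, Gabra4 and Gabrb1 the values were -0.09, -0.03, 0.01 and -0.17.

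Markers of other cell types were measured in the same arrays. Of 13 lens genes, 12 rose in the labelled knockout, with a median log2 fold change of 3.80. Their summed signal was 2955 and 2405 in wildtype against 52444 and 46930 near 500, and 5718 against 34345 near 150. Of 7 pigment epithelium genes tested, 4 rose, with a median of 0.62 and summed signals of 31110 and 31620 against 35812 and 42236 near 500, and 867 against 1569.6 near 150. In the fit of all 6 arrays, no marker of bipolar, amacrine, horizontal, ganglion, rod or cone cells was called, and the medians were 0.16, -0.11, -0.04, -0.21, -0.25 and 0.04. In the arrays scaled near 500 alone, where Glrb, Gria2 and Grik1 were called, markers of these cells were called too. Of all genes, 14.3% were called in that fit, 7.52% higher and 6.78% lower. Of 9 rod markers 6 were lower, among them Pde6a (log2 -0.67) and Gnat1 (-0.37), and the rod median was -0.37 near 500 and 0.00 near 150. Of 10 bipolar markers, 2 were lower, Vsx1 (-0.98) and Prkca (-0.30), and 2 higher, Trpm1 (0.66) and Gng13 (0.31). There were 2 higher and 2 lower of 7 ganglion cell markers, 1 higher and 1 lower of 7 cone markers, 2 higher of 8 Müller glia markers, and 1 lower each of 12 amacrine and 7 horizontal cell markers (Tfap2a at -0.45 and Prox1 at -0.49). The 3'/5' signal ratio of Actb, a measure of RNA quality, was 1.83, 1.89 and 2.32 in wildtype and 1.82, 1.66 and 1.67 in the labelled knockout. The part of these values in the receptor results was not tested.

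The promoters were searched for the estrogen-related receptor element, because the gene named in the labels encodes a receptor that binds it. RefSeq promoter windows of 300 bases (250 before to 50 after the start site, GRCm38.p6) were found for 24 member genes, in 28 windows. The full element TCAAGGTCA, on either strand, was in 0 of these genes, against 0.423% of 32851 windows of all genes. Its core AAGGTCA, which the full element contains, was in 1 gene, Grin2c, against 4.72% of all windows. Grin2c encodes an NMDA receptor subunit and lay under the filter. The first base of the core was at -249 from its start site. The stretch is shown with the core in capitals, at chr11:115267426-115267493 on the minus strand of GRCm38.p6, since it is the only match among the members.
Grin2c: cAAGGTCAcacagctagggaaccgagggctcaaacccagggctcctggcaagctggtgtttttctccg
A match describes these letters and not a bound site, and a window without one says only that the letters are not in it.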

How the data were processed

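Total RNA from P21 retina was measured on Affymetrix arrays. The deposited values are signal intensities on a linear scale, made by the authors with GCOS 1.4 and MAS5, per the submitters' processing notes. Arrays had been scaled to a trimmed mean near 500 or near 150, found from the values. The deposited intensities were log2-transformed without further scaling and fitted with limma 3.58.1 (R 4.3.3) on group and scaling batch, with a variance trend. There were 45037 non-control probe sets, of which 34945 had 1 gene symbol, 932 several and 9160 none. The 27022 probe sets at or above the 40th percentile of mean log2 signal were tested, with Benjamini-Hochberg adjustment over all of them and a threshold of 0.05. The script was tested on simulated data.

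With the scaling left in, the deviations of same-numbered arrays from their group means had correlations of 0.57, 0.67 and 0.843 for numbers 1, 2 and 3. The scaling of replicate 3 sits within the number, so these correlations hold the scaling difference. Within the near 500 arrays, which share a scaling, the correlation was 0.0153, so no pairing by number was seen there. The fit with the number as a block is an alternative with 2 residual degrees of freedom, against 3 in the main one.

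Members and gene lists were chosen with earlier results of these data known. Values in every array are given for the 3 largest increases and decreases of each receptor class (AMPA, kainate and delta; NMDA; GABA-A with GABA-rho; glycine) and for the subunit pairs. Another planned subunit pair was not analysed here. Of the other synapse genes, those called and the 2 with the largest change each way are named. Alternatives covered scaling, filter, variance trend, pseudocount, probe set choice, the replicate block and leaving out each array.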

Additional observations from a re-analysis of the deposited data

Results flagged for a closer look

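In 3 cases the difference between labelled knockout and wildtype was not the same in the arrays scaled near 500 and in the pair scaled near 150, by the interaction term of the limma fit. The second Glrb probe set had an interaction (near 150 minus near 500) of -1.88 on the log2 scale, with an adjusted p of 0.00124. Slc17a6, a vesicular glutamate transporter of ganglion cells, had -0.91 (adjusted p 0.0173), from 0.58 near 500 and -0.33 near 150. Slc17a7, the vesicular glutamate transporter of photoreceptors and bipolar cells, had 0.86 (adjusted p 0.0183), from -0.61 near 500 and 0.26 near 150. Of all genes tested, 1.17% had such a call, and the near 150 side rests on 1 array a group.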

How the results depend on the processing

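The count of 0 called members held without the batch term, with the replicate block, with median centring, quantile normalization, 16 added before the log, no filter, a filter at the 60th percentile, no variance trend, the mean of a gene's probe sets, and no probe sets of the _s and _x types. It was 3 near 500 alone, where 14.3% of all genes were called. It was 6 with those arrays centred and 4 with them quantile normalized (both chosen after seeing the data). When 1 array was left out it was 0 to 3, with 3 reached without replicate 3 of either group. No share of all genes is given for the near 500 fits after centring or quantile normalization, or for those with 1 array left out. The members' median of -0.09 was 0.0062 after centring, -0.0065 at the 60th percentile, -0.00036 with probe sets averaged and 0.17 near 500 after centring, and -0.079 to -0.022 with 1 array left out.

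Members called for the interaction (0, against 1.17% of all genes) became 4 with centring. They became 1 each with quantile normalization, the 60th percentile and averaged probe sets. No share of all genes is given for these settings, so these counts cannot be set against it. The 5 members with groups apart became 15 near 500 alone, where 58.7% of all genes were apart. With centring and quantile normalization there, they became 18 and 15, and no share of all genes is given for these. They became 7 with all arrays centred, and 7 to 15 with 1 array left out, again with no share of all genes given. Fewer arrays make groups come apart more easily in any gene: over all genes the share was 35.3% with 6 arrays and 58.7% near 500 alone. These counts therefore say nothing particular about the members. The 1 other synapse gene called became 0 with no batch term, the replicate block, centring, quantile normalization, no filter or no trend. It became 2 at the 60th percentile. Near 500 alone it became 9, where 14.3% of all genes were called. It became 15 and 11 there with centring and quantile normalization. No share of all genes is given for these, and 14.3% does not apply to them. With 1 array left out it was 0 to 9, also with no share of all genes given. With 16 added, the near 500 shift of Grin2a minus Grin2b was 1.21 and that of Glra1 minus Glra2 was -0.02; with 1 array left out they ran from 0.91 to 2.25 and from -0.43 to 0.41. Over 19 alternative settings, 15 of 27 members kept their sign in each.

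Called probe sets over the whole table were 609, 200 with the replicate block, 0 with no batch term, 19 with no trend, 955 at the 60th percentile, 405 with no filter and 284 with centring. With 3 arrays a group an exact permutation test could not go below 0.1.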
